A study of Homo sapiens with 57 samples.

Results

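Roucongrong, the Chinese medicinal name for the stem of Cistanche, was given as a crude extract to HK-2 cells, and 3 wells of extract were set against the 16 DMSO wells that belong to them. These 19 wells, chosen by the set number and treatment in their labels, are part of 57 wells in the series. The description centres on the 225 of 412 panel genes with a mean count of 5 or more over the 19 wells. The other 187 genes had lower means, and 10 of those had no count in any of the 19 wells. Just outside this limit were IL10RB, PPP2R1A and ESR2, with mean counts of 4.74, 4.84 and 4.95, and just inside it were SHC1 and MTARC1 with 5.11 each and FBN1 with 5.16.

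HK-2 is an established human line of proximal tubule epithelial cells. Cells were seeded at 3000 per well in 384-well plates, and each treated well received 100 μg/mL of the extract for 24 h, whereas each control well received 0.50% DMSO. The labels do not say whether the treated wells also held DMSO, and they do not say whether the wells came from separate cultures, so every p-value measures the spread between wells, which may be technical. The other wells of the series hold Yinyanghuo and Gusuibu extracts at 100 μg/mL, 3 wells each, with 16 DMSO wells of their own for each. The assay was RASL-seq. Its probe pairs anneal to the mRNA of a fixed gene panel, are ligated, amplified and sequenced, and the deposited value is the number of reads per gene. The panel allowed only a limited check of the cell type. Of 11 proximal tubule markers only HNF4A, a hepatocyte and proximal tubule transcription factor, was on the panel, and it was at 31.1 CPM (counts scaled to a common library size by TMM) in the first treated well and at 0 in the other treated wells, with 0 to 80.3 CPM in the DMSO wells. Markers of injured or cultured tubule cells (LCN2, VIM, CDH2 and SPP1) were abundant, with a summed level of 47375, 36694 and 43245 CPM in the 3 treated wells and 27021 to 44552 CPM in the DMSO wells. The fibroblast marker COL1A2 was at 0 in all 3 treated wells and reached 25.5 CPM in the DMSO wells. CDH5 and KDR, markers of endothelium, summed to 280, 125 and 55.4 CPM after treatment, against 20.9 to 465 CPM with DMSO. The 5 leukocyte markers summed to 561, 24.9 and 609 CPM after treatment, against 172 to 528 CPM with DMSO, and the part of any of these differences in the results was not tested.

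Cells meet plant extracts with several general programmes, and this background helps to read the panel. Electrophilic or oxidising compounds can release the transcription factor NRF2, which raises enzymes that degrade haem and repair oxidised proteins. Growth factor ligands of the EGF family act on the receptor EGFR at the cell surface, the BCL2 family balances survival against death at the mitochondrion, and 14-3-3 adaptors hold phosphorylated partners such as FOXO factors and BAD in the cytoplasm.

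The treated wells held 31292, 40077 and 36988 counts in total, and the DMSO wells held 29609 to 75969 (median 42023). A floor of 3 counts corresponded to 74.9 to 95.9 CPM after treatment, against 39.5 to 101 CPM with DMSO. Molecular identifiers were not used, and the floor and the counting intervals given here cover the counting of reads alone. The standard errors come from the fit and include the spread between wells. The 225 genes took 99.5% of all counts. The third treated well stood apart from all other wells in the remaining genes. Genes under a mean count of 5 took 1.07% of its counts, against 0.594% and 0.462% in the first and the second treated well and 0.325% to 0.752% in the DMSO wells. Of the 177 low-count genes that were detected, 31 had their highest CPM in the third treated well, while no other well was the highest for more than 18. For 8 of them (APOA5, CYP11A1, GNG3, HRAS, MMP7, NCF1, RARA and TNFRSF1A) the third treated well was at least 3-fold above the next well, and no other well had more than 1 such gene. Results that rest on this well are therefore given with and without it. In wells lysed whole, fewer cells expressing a gene and less RNA per cell cannot be told apart.

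**Figure D1:**
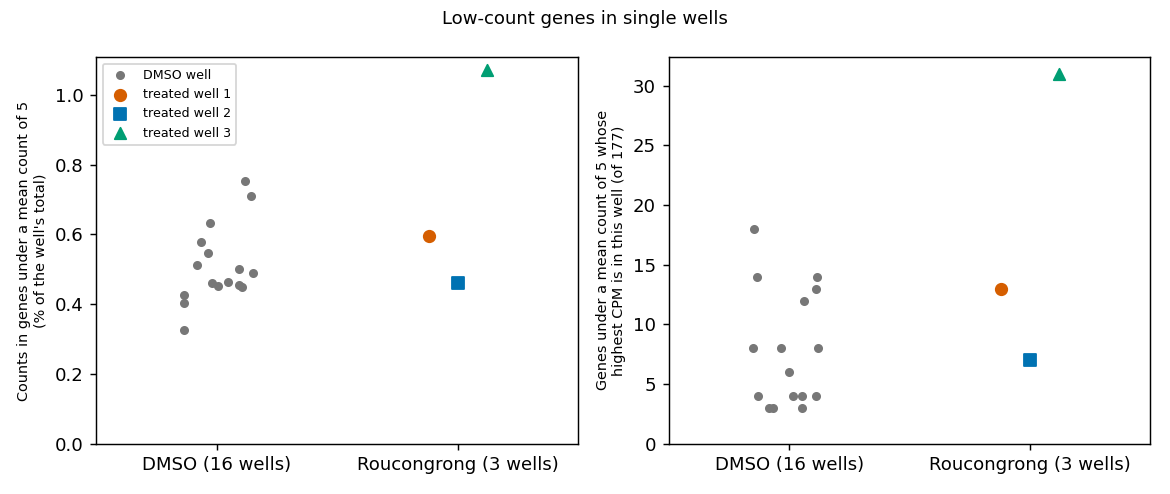
Each point is one well of the 16 DMSO wells or the 3 Roucongrong wells; the left panel gives the percent of the well's counts in genes under a mean count of 5, and the right panel the number of those genes (of 177) with their highest CPM in that well. The third treated well is at 1.07% and 31 genes, above every other well in both panels.

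Of 402 genes tested with edgeR's quasi-likelihood F test, 41 were called differentially expressed genes (DEGs), meaning a p under 0.05 before adjustment with a level over 1.5 times or less than 0.67 times that of the controls, and these made up 10.2% of the genes tested. Of these, 29 were higher (7.21%) and 12 lower (2.99%). Among the 225 genes with a mean count of 5 or more, 21 were called (9.33%), of which 10 were higher and 11 lower. The other 20 calls were made among 177 low-count genes (11.3%), and 19 of those were higher. After Benjamini-Hochberg adjustment over all 402 genes, 12 genes had an adjusted p under 0.05 (2.99%), and 7 of these had a mean count of 5 or more. These 7 were HMOX1, EREG and YWHAQ on the higher side and BBC3, SOD2, VCAN and CYP4V2 on the lower side. Only HMOX1 and EREG among them kept an adjusted p under 0.05 whichever treated well was left out. Without the third treated well the adjusted p was 0.123 for YWHAQ, 0.0529 for BBC3, 0.451 for SOD2, 0.444 for VCAN and 0.289 for CYP4V2, and without the first it was 0.127, 0.0529, 0.102, 0.138 and 0.188 for these genes in the same order. Most of the 225 genes moved little: the median log2 fold change was -0.04, the median size without regard to sign was 0.25, and 178 genes lay within 0.5 of zero. Precision followed depth, with a median standard error of 0.45 on the log2 scale for the 72 genes with mean counts from 5 to 20, 0.24 for the 82 from 20 to 100 and 0.14 for the 71 with 100 or more. No gene from 5 to 20 had an adjusted p under 0.05, although 8 of them were called.

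**Figure D2:**
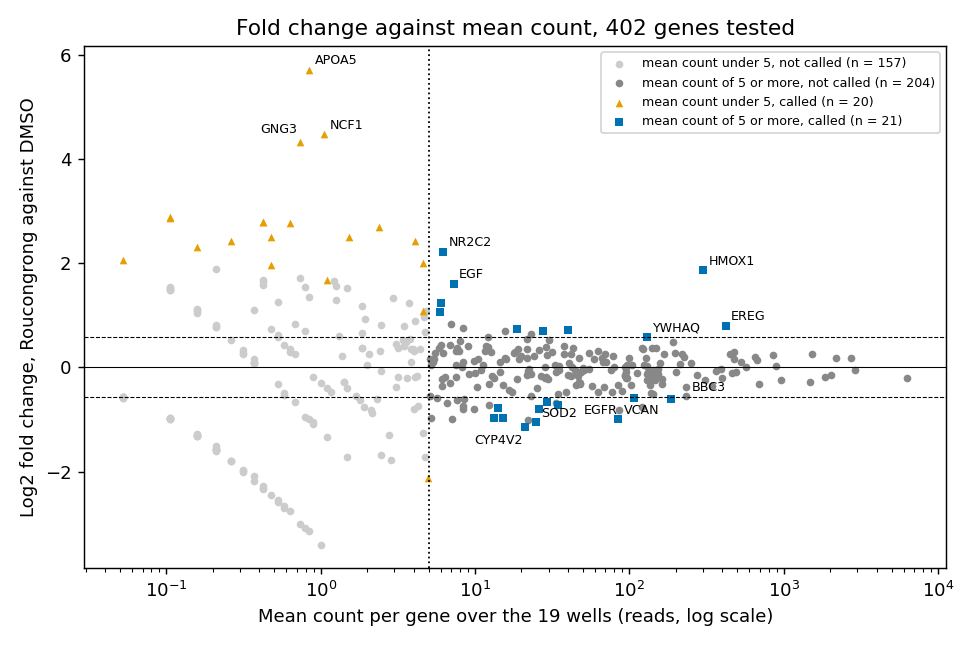
Log2 fold change (Roucongrong against DMSO) is plotted against the mean count over the 19 wells on a log axis, one point per gene; the dotted line marks a mean count of 5 and the dashed lines the fold limits of 1.5 and 0.67. To the right of the dotted line NR2C2 at 2.22, HMOX1 at 1.87 and EGF at 1.61 are the highest points, and the largest values of the plot lie to its left.

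Single wells were compared among the calls with a mean count of 5 or more, which were chosen on the same wells, so that their agreement in direction follows in part from the choice. For 18 of the 21 genes, and for 98 of all 225, every treated well fell to one side of the median of the DMSO wells. The exceptions were EGF, NR2C2 and PIAS1. The first treated well was on the called side for 19 of the 21 genes, the second for 20 and the third for 21. A stricter reading asks that all 3 treated wells lie outside the whole range of the 16 DMSO wells, which held for 8 of the 225 genes (3.56%, beside the 9.33% called). HMOX1, EREG and YWHAQ lay above that range and BBC3, EGFR, CYP4V2, MED1 and IGF1R below it. MED1 and IGF1R did so narrowly, since the highest treated well was at 3318 CPM against 3320 in the lowest DMSO well for MED1 and at 1620 against 1642 CPM for IGF1R. Leaving out each treated well in turn, 5 of the 21 genes (HMOX1, EREG, SOD2, VCAN and CYP4V2) were called in all 3 fits, 10 in 2 fits, 5 in 1 fit and BCL2L1 in none. Of the 21 genes, 13 were called again without the first treated well, 17 without the second and 10 without the third. A two-sided exact permutation test on mean log2 CPM, run over all 969 choices of 3 wells, gave p under 0.05 for 19 of the 21 genes and for 60 of the 402. Its smallest possible p is 0.00103, and with adjustment over 402 genes none fell under 0.05 (smallest 0.0593). As a description across the 225 genes, which are not independent replicates, the log2 ratio to the DMSO mean had a Pearson correlation of 0.31 between the first and the second treated well, 0.21 between the first and the third and 0.08 between the second and the third. All 3 ratios share the same DMSO mean, which by itself makes such correlations positive, so these values are no measure of agreement on their own. The DMSO wells of the other 2 sets, put in place of the matched ones, left HMOX1 at 1.98, EREG at 0.60 and EGFR at -0.83, all still called. SUMO2 (0.10), BCL2L1 (0.01) and PIAS1 (0.13) lost their calls, as did YWHAQ, VCAN, MED1, THEM4, TYK2, HSPA8 and CDKN1A. The other called genes kept theirs, CYP4V2 at -0.88 with an F test adjusted p of 0.213. BBC3 and IGF1R, not called with the matched wells either, went to -0.19 and -0.09 (F test, adjusted p = 0.549 and 0.788).

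**Figure D3:**
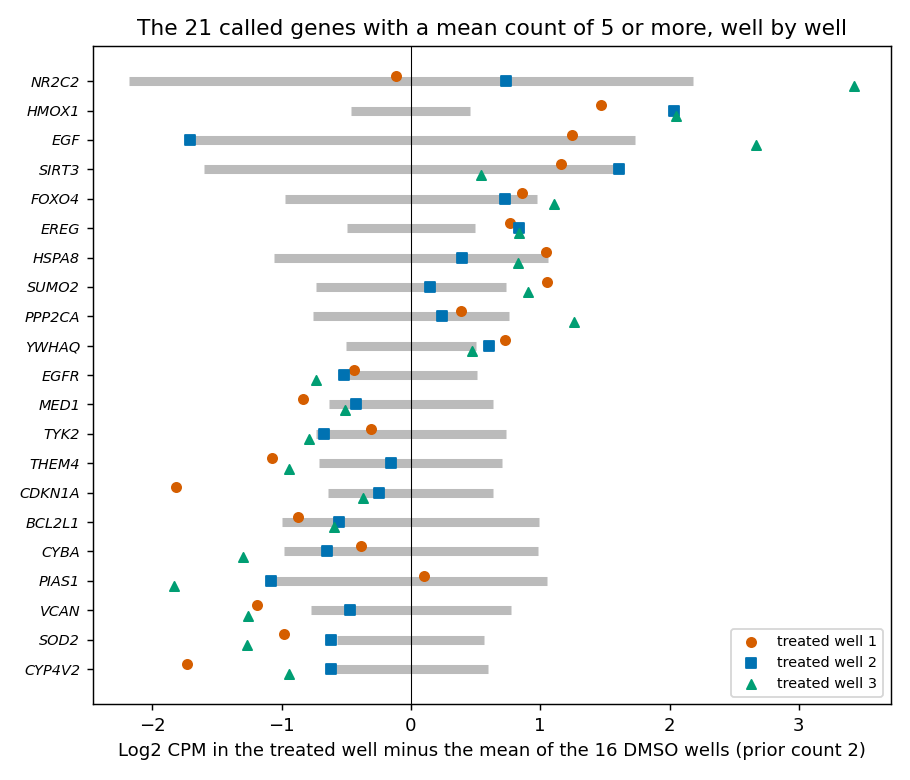
For each of the 21 called genes with a mean count of 5 or more, the 3 symbols give log2 CPM in one treated well minus the mean of the 16 DMSO wells (prior count 2), and the grey bar spans 2 SD of the DMSO wells on each side of zero. HMOX1 and EREG show all 3 symbols outside the bar on the right, while NR2C2 and EGF show the third treated well far from the other wells.

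The haem and redox list held the gene with the lowest p of the comparison. HMOX1, which encodes haem oxygenase 1, the inducible enzyme that degrades haem, was at 14172, 21004 and 21263 CPM in the 3 treated wells. In the DMSO wells it ran from 4124 CPM through a median of 4901 to 6551 CPM. The lowest treated well was thus above the highest DMSO well by more than the whole range of the DMSO wells, and the first treated well was lower than the other treated wells. The means were 18813 ± 4021 CPM (SD, n = 3) and 5162 ± 848 CPM (SD, n = 16), a 3.65-fold rise with a log2 fold change of 1.87 ± 0.13 (SE) and an adjusted p of 6.15e-12. The exact permutation p was 0.00103, the smallest possible, and leaving out single treated wells kept the log2 fold change between 1.78 and 2.03. SOD2, the mitochondrial superoxide dismutase, fell: 280, 374 and 221 CPM in the treated wells against 373 to 954 CPM (median 614) in the DMSO wells. Only the second treated well reached into the DMSO range, where 15 of 16 DMSO wells lay above it. Its log2 fold change was -1.05 ± 0.28 (SE; adjusted p = 0.0281), from raw counts of 9, 15 and 8. CYBA, a subunit of NADPH oxidase, was called lower at -0.96 ± 0.39 (adjusted p = 0.214) with 249, 200 and 111 CPM against a DMSO median of 391 CPM, and at -0.71 it was no longer called without the third treated well. SIRT3, a mitochondrial deacetylase near the count limit, was called higher at 1.23 ± 0.54 (adjusted p = 0.271) from counts of 9, 16 and 6, and its call was lost without the first or the second treated well. TXN, thioredoxin, was the third most abundant gene of the panel. It was at 67839, 67501 and 75832 CPM against a DMSO median of 61583 CPM, a log2 fold change of 0.18 ± 0.08 that did not reach the fold limit (p = 0.0256, adjusted p = 0.251). In all, 9 of the 12 redox genes on the panel passed the count limit; 2 were called higher, 2 lower and 5 were not called, against 9.33% called of all 225, and only HMOX1 and SOD2 of these calls had an adjusted p under 0.05. The median log2 fold change of the 9 was 0.18, beside -0.04 for all 225.

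**Figure D4:**
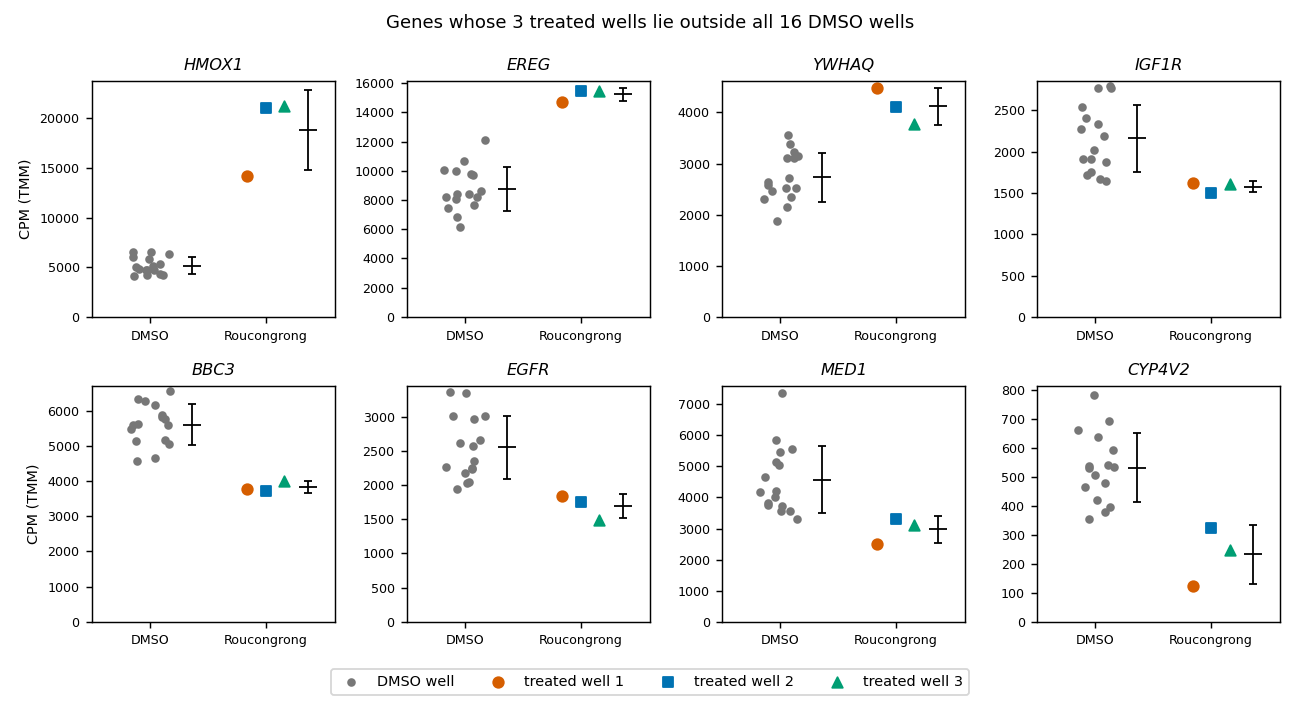
CPM (TMM) is shown for every DMSO well (grey) and every treated well (coloured) for the 8 genes whose 3 treated wells lie outside the range of all 16 DMSO wells; black bars give the mean ± SD, and the vertical axes start at 0. HMOX1, EREG and YWHAQ lie above and IGF1R, BBC3, EGFR, MED1 and CYP4V2 below, with only a narrow gap for IGF1R and MED1.

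In the EGF receptor list the ligand gene EREG was called higher and the receptor gene EGFR lower. EREG encodes epiregulin, a ligand of EGFR and ERBB4. It was at 14733, 15491 and 15476 CPM after treatment, against 6159 to 12079 CPM (median 8410) with DMSO. The treated wells lay close together, with an SD of 434 CPM against 1522 CPM among the DMSO wells. The rise was 1.74-fold, a log2 fold change of 0.80 ± 0.13 (adjusted p = 0.000312; exact permutation p = 0.00103), and it was called in all 3 fits that left out a treated well. EGFR, the receptor, was at 1838, 1746 and 1495 CPM against 1940 to 3359 CPM (median 2460). All treated wells lay below all DMSO wells, yet the log2 fold change of -0.59 ± 0.17 had an adjusted p of 0.0538, and without the third treated well the fold limit was no longer passed (-0.51). TGFA, another EGFR ligand, was lower without reaching the fold limit (-0.46 ± 0.20, p = 0.0276, adjusted p = 0.265). EGF itself rested on 1 well: its counts were 10, 0 and 33 after treatment, against 0 to 17 with DMSO. The call at 1.61 ± 0.62 (adjusted p = 0.198) shrank to 0.13 without the third treated well, and the exact permutation p was 0.32. The ligand AREG had a log2 fold change of 0.82 ± 0.42 with p = 0.061 and was not called. Of the 12 genes on the panel in this list, 8 passed the count limit, 2 were called higher, 1 lower and 5 were not called. The share called over all 225 genes was 9.33%. That share also stands beside the counts of calls in the lists that follow, and no list was tested as a set.

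YWHAQ, which encodes the theta isoform of the 14-3-3 adaptors, was at 4485, 4116 and 3765 CPM after treatment, against 1879 to 3553 CPM (median 2614) with DMSO. No treated well overlapped with the DMSO wells. The log2 fold change was 0.59 ± 0.15 (adjusted p = 0.0245, exact permutation p = 0.00103), which sits on the limit of 1.5-fold itself. It ran from 0.40 to 0.67 over 29 alternative fits, and 14 of them did not call it. Among those 14 were the fit without the first treated well (0.52) and the fit with DMSO wells of the other 2 sets. The other 14-3-3 genes were not called. YWHAE and YWHAB, both among the 10 most abundant genes, had log2 fold changes of 0.25 ± 0.10 (p = 0.0235) and 0.19 ± 0.10 (p = 0.0635), YWHAZ had 0.20 ± 0.12 and YWHAH 0.39 ± 0.22. SFN, the epithelial sigma isoform, scattered most: it was at 623, 1098 and 3710 CPM after treatment, against 422 to 9209 CPM with DMSO, and its value of -0.76 ± 0.57 had p = 0.197.

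Of 5 measured genes of the BCL2 family 1 was called, and it was lower. BBC3, which encodes the death-promoting protein PUMA, was at 3769, 3717 and 4014 CPM against 4585 to 6564 CPM (median 5611) in the DMSO wells. Its treated wells were tightly grouped and all lay below the DMSO range. The log2 fold change was -0.55 ± 0.12 (adjusted p = 0.00651; exact permutation p = 0.00103), a level of 0.68 of the control that just missed the fold limit, so BBC3 was not among the calls. BCL2L1, encoding the survival protein BCL-xL, was called lower at -0.80 ± 0.34 (adjusted p = 0.266) with 311, 399 and 388 CPM against a DMSO median of 599 CPM. Its DMSO wells spread from 308 to 1410 CPM, so the treated wells lay within that range, and the call was lost whichever treated well was left out. The killers BCL2L11 (-0.35 ± 0.17, p = 0.0504), BID (-0.48 ± 0.23, p = 0.0473) and BAD (-0.30 ± 0.21, p = 0.167) were not called. The median over these 5 genes was -0.48, beside -0.04 over all 225, and none of the 5 was above zero, beside 104 of the 225. In the list of cell cycle and DNA damage genes, 18 of 21 on the panel passed the count limit and CDKN1A, encoding the cyclin-dependent kinase inhibitor p21, was the only call. Its counts were 2, 11 and 9 after treatment, against 9 to 33 with DMSO, and the log2 fold change of -0.78 ± 0.36 (adjusted p = 0.312) became -0.39 without the first treated well and was then not called. CDKN2A (0.01 ± 0.12), MDM2 (-0.14 ± 0.31) and CDK1 (0.16 ± 0.13) were not called.

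Among the matrix genes VCAN alone was called. It encodes versican, a large chondroitin sulphate proteoglycan, and was at 872, 1472 and 831 CPM against 1306 to 4049 CPM (median 2013) in the DMSO wells. The second treated well was the only one within the DMSO range. The fall was -0.99 ± 0.26 on the log2 scale (adjusted p = 0.0281; exact permutation p = 0.0031), close to a level of 0.50 of the control. With controls borrowed from the other 2 sets, the value was -0.12. The other 9 measured matrix genes were not called, among them FN1 (-0.18 ± 0.11), SDC2 (0.11 ± 0.14), SPP1 (0.25 ± 0.17), LAMB1 (-0.32 ± 0.15, p = 0.037) and LAMC1 (0.53 ± 0.26, p = 0.0491). None of the 14 measured integrin and focal adhesion genes was called, with CDH2 (N-cadherin) at 0.28 ± 0.13 (p = 0.0366) and ITGB1 at 0.20 ± 0.15.

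SUMO2, a small ubiquitin-like modifier, was called higher with 1713, 898 and 1550 CPM against 496 to 1369 CPM (median 794). All treated wells except the second were above every DMSO well. The log2 fold change was 0.72 ± 0.23 (adjusted p = 0.102, exact permutation p = 0.0103). Without the first treated well it was 0.54 and the call was lost. SUMO3, whose mature protein is nearly identical to SUMO2, had 0.37 ± 0.16 (p = 0.0301) and was not called. PIAS1, a SUMO ligase, was called lower at -0.97 ± 0.47 (adjusted p = 0.312) from counts of 11, 5 and 2, and the call was lost without the second or the third treated well. The kinase TYK2 was called lower at -0.66 ± 0.27 (adjusted p = 0.214) with 561, 424 and 388 CPM against a DMSO median of 788 CPM, a call that was lost without the second (-0.61) or the third treated well (-0.56). JAK1 (0.07 ± 0.12) was among the 9 of 11 measured JAK-STAT genes that were not called.

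MED1, a Mediator subunit that contacts nuclear receptors, was the only call among 8 coregulators. It was at 2492, 3318 and 3129 CPM against 3320 to 7348 CPM (median 4199), a log2 fold change of -0.61 ± 0.19 (adjusted p = 0.0889; exact permutation p = 0.00722). Without the first treated well it was -0.50 and no longer called, and with controls borrowed from the other 2 sets it was 0.08. EP300, an acetyltransferase, had a value of -0.35 ± 0.17 (p = 0.0472) and was not called. Among 9 measured nuclear receptors NR2C2, the orphan receptor TR4, was the only call, and it depended on 1 well. Its counts were 2, 6 and 44 after treatment, against 0 to 19 with DMSO, and the log2 fold change of 2.22 ± 0.75 (adjusted p = 0.121; exact permutation p = 0.098) was 0.11 without the third treated well. NR1H2 (0.01 ± 0.25) and PPARD (0.70 ± 0.38, p = 0.0751) were not called.

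Of 17 measured genes of the PI3K, AKT and PP2A list, 15 were not called. PPP2CA, a catalytic subunit of protein phosphatase 2A, was called higher at 0.69 ± 0.26 (adjusted p = 0.198) with 748, 674 and 1412 CPM against a DMSO median of 524 CPM, and its value was 0.28 without the third treated well. THEM4, a thioesterase that binds AKT, was called lower at -0.72 ± 0.27 (adjusted p = 0.198) with 374, 748 and 415 CPM against a DMSO median of 828 CPM. Its call was lost without the first (-0.55) or the third treated well (-0.58). IGF1R, the IGF1 receptor, was at 1620, 1497 and 1606 CPM against 1642 to 2789 CPM and had -0.45 ± 0.18 (p = 0.0164, adjusted p = 0.198), short of the fold limit. PPP2R5C, among the 10 most abundant genes, was at 0.03 ± 0.09. FOXO4 was the only call of 8 measured genes in the FOXO list, at 1.06 ± 0.42 (adjusted p = 0.198; exact permutation p = 0.0031). Its counts of 8, 9 and 11 were close to each other, against 2 to 11 in the DMSO wells, and in CPM they exceeded 15 of 16 DMSO wells, but at 0.93 the gene was not called without the third treated well. Several members had values below zero without reaching the fold limit: FBXO32, a muscle atrophy ubiquitin ligase and FOXO target, was at -0.51 ± 0.15 (p = 0.00199, adjusted p = 0.0538), SMAD4 at -0.35 ± 0.11 (p = 0.0041, adjusted p = 0.0968) and FOXO3 at -0.47 ± 0.21 (p = 0.0323). Each of these 3 genes had 12 or more DMSO wells above its highest treated well.

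CYP4V2, a fatty acid hydroxylase of the cytochrome P450 family, was the lowest of the 225 genes. It was at 125, 324 and 249 CPM, with raw counts of 4, 13 and 9, against 354 to 783 CPM (median 533) in the DMSO wells. No treated well overlapped with the DMSO wells, and the first was the lowest. The log2 fold change was -1.15 ± 0.31 (adjusted p = 0.0281; exact permutation p = 0.00103). HSPA8, a constitutive heat shock chaperone, was called higher at 0.73 ± 0.32 (adjusted p = 0.271) with 810, 499 and 692 CPM against a DMSO median of 339 CPM, and its call was lost without the first (0.57) or the third treated well (0.69). HSP90AA1 (0.65 ± 0.32, p = 0.0524) and HSP90B1 (-0.15 ± 0.10) were not called. No gene was called among the measured members of the cytokine list (7 genes), the cytokine receptor list (2), the G protein list (6), the VEGF and hypoxia list (13), the eicosanoid list (3) or the immediate early list (3). IL6, the second most abundant gene, was at 61921, 67077 and 65948 CPM against 50735 to 95164 CPM and had a log2 fold change of -0.06 ± 0.13. HIF1A (-0.32 ± 0.15, p = 0.0492), CAV1 (-0.25 ± 0.13, p = 0.0572) and VEGFA (0.08 ± 0.17) likewise stayed within the fold limits.

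The promoters of the genes that had an adjusted p under 0.05 and no overlap between groups are shown because these are the members that the wells separate best. RefSeq's promoter table (GRCh38.p14) held 1 entry each for EREG, YWHAQ, BBC3 and CYP4V2; HMOX1 had no entry. It held entries for 178 of the 225 genes. Each line gives the 250 bases before the start of the gene, 5′ to 3′ on its own strand, with matches on either strand in capitals. The promoter element searched as the TATA box was TATAAA. The letters of the CCAAT box were used as its name gives them, the GC box was read as GGGCGG, the E-box as CACGTG and the AP-1 site as TGANTCA. The core of the antioxidant response element was read as TGACNNNGC, and neighbouring matches can share bases, as a CCAAT box and a GC box do in YWHAQ.
EREG, chr4:74364895-74365144, plus strand: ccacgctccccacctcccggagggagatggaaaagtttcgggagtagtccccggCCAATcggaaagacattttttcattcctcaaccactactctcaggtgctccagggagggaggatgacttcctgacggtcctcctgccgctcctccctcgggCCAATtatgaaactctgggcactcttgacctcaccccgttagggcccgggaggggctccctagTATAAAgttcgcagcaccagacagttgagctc
YWHAQ, chr2:9630998-9631247, minus strand: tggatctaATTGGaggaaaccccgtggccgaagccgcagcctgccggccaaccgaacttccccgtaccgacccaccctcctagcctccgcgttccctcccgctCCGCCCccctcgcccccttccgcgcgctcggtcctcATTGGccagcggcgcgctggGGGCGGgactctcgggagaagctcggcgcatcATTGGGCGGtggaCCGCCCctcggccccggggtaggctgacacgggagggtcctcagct
BBC3, chr19:47232668-47232917, minus strand: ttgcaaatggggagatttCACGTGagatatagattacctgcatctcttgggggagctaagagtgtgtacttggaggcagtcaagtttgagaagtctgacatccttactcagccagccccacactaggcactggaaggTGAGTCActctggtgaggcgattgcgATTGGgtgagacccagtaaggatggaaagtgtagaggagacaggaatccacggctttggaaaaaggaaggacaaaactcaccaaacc
CYP4V2, chr4:186191317-186191566, plus strand: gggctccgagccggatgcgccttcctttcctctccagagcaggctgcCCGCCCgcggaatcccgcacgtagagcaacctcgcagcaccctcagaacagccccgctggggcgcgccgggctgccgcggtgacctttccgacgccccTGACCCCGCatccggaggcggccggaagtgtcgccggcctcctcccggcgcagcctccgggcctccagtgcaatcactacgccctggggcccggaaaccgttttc
EREG held a TATA box that begins 32 bases before the start and 2 CCAAT boxes. YWHAQ held 3 CCAAT boxes and 4 GC boxes, BBC3 an E-box, an AP-1 site and a CCAAT box, and CYP4V2 a GC box and the antioxidant response element core. Of 35116 promoter windows of this length, 10.7% held the TATA box, 32% the CCAAT box, 42.6% the GC box, 6.34% the E-box, 6.57% the AP-1 site and 10.9% the antioxidant response element core. Among 303 windows of the genes with a mean count of 5 or more the shares were 12.5%, 32%, 63.4%, 5.94%, 6.27% and 9.57% in the same order, and a match is a description only.

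A group of well-measured genes disagreed between the treated wells. These genes were chosen after their values were seen, as the 12 with the widest range of log2 CPM among the treated wells at mean counts of 20 or more. The third treated well was the lowest of the treated wells in all of them except SFN and PIK3R1. CYP2S1 was at 2056, 474 and 194 CPM, against 528 to 2222 CPM in the DMSO wells. PPARGC1A, a coactivator of mitochondrial genes, was at 7413, 9679 and 1495 CPM against 1601 to 10502 CPM. IL23A was at 3177, 5313 and 914 CPM against 1491 to 7899 CPM. In each of these the second or the first treated well was at or above the DMSO median while the third was below the lowest DMSO well. The acetyltransferase KAT2B (1277, 1596 and 194 CPM against 378 to 2169 CPM), ANXA1 (2741, 3193 and 498 CPM against 652 to 3718 CPM), SOCS5 (841, 798 and 111 CPM against 157 to 1580 CPM) and PIM1 (311, 474 and 55.4 CPM against 222 to 1673 CPM) likewise had the third treated well below the lowest DMSO well. JAK2 (3489, 5862 and 1274 CPM against 1265 to 5700 CPM) had the third treated well just above the lowest DMSO well. PTK2B, PIK3R1 and GNAI1 completed the group. None of the 12 was called with all wells, SFN was called lower at -1.80 without the third treated well, and the ranges of the DMSO wells were themselves from 1.25 to 4.31 on the log2 scale.

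The 20 calls under a mean count of 5 are given as counts, since they lie near the floor. ESR2, the oestrogen receptor beta gene, was the only one called lower, with 1, 2 and 0 counts after treatment, against 0 to 11 (median 6) with DMSO. For 7 genes (IGF2, APOB, CCL5, MAOB, NANOG, PPARA and RARB) no well of either group exceeded 3 counts, and no fold change is given. In 15 of the 19 called higher the third treated well had the highest CPM of all 19 wells. It held 32 counts of MMP7 (2 and 0 in the other treated wells, up to 8 in the DMSO wells), 27 of HRAS (7 and 1, up to 8), 18 of TNFRSF1A (3 and 2, up to 4) and 17 of NCF1 (0 and 0, up to 2). It also held 16 counts of APOA5, which no other well detected, 13 of IL1R1 (1 and 0, up to 4), 11 of GNG3 (0 and 1, up to 1), 11 of BCL6 (6 and 4, up to 9), 7 of CYP11A1, 5 of SERPIND1 and 4 of ELMO1. PIK3R2 had 5, 0 and 2 counts against up to 3. Of these 19 genes, 3 (CCL5, MAOB and RARB) were called again without the third treated well, whereas 16 were without the first and 15 without the second. GNG3, NCF1, TNFRSF1A, APOA5 and IGF2 were the 5 low-count genes with an adjusted p under 0.05 (0.00142, 0.00314, 0.0103, 0.0184 and 0.049), and none of these was called without the third treated well; APOA5 had no count left to test. On pooled counts, GNG3 was 39.7-fold higher (95% counting interval 8.84 to 365) and NCF1 37.5-fold (10.8 to 200), and APOA5 was at least 2.05-fold higher against a floor of 3 counts per DMSO well, all 3 ratios carried by the third treated well. Reads of NCF1 can be shared with its near-identical pseudogene copies.

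The change with Roucongrong was also compared with that of the other extracts by an interaction term over all 57 wells. Against Yinyanghuo, 28 of 412 genes had an adjusted p under 0.05 (6.8%), among them 4 of the 21 called genes with a mean count of 5 or more. Against Gusuibu there were 27 of 412 (6.55%), among them 7 of the 21. The 21 genes were chosen on the same Roucongrong set wells that enter this test. A larger share among them than over all genes therefore follows in part from the choice. HMOX1 had a log2 fold change of 1.87 ± 0.13 with Roucongrong, 1.07 ± 0.15 with Yinyanghuo and 0.17 ± 0.15 with Gusuibu. It thus rose more with Roucongrong than with Gusuibu (difference 1.69 ± 0.22, adjusted p = 2.93e-08) and than with Yinyanghuo (0.80 ± 0.22, adjusted p = 0.0156), the latter not held without the second (adjusted p = 0.138) or the third treated well (0.152). VCAN was at -0.99 with Roucongrong, -1.71 ± 0.30 with Yinyanghuo and 0.75 ± 0.21 with Gusuibu, and it differed from Gusuibu (-1.76 ± 0.33, adjusted p = 0.000352) and not detectably from Yinyanghuo (adjusted p = 0.363). CDKN1A was at 1.53 ± 0.31 with Yinyanghuo, which differed from its value with Roucongrong (-2.32 ± 0.43, adjusted p = 0.000172). The differences of HMOX1 and VCAN from Gusuibu and of CDKN1A from Yinyanghuo kept an adjusted p under 0.05 when each Roucongrong well was left out. EREG, with 0.89 ± 0.18 for Yinyanghuo and 0.53 ± 0.12 for Gusuibu, showed no detectable difference from either (-0.11 ± 0.24 and 0.25 ± 0.24, adjusted p = 0.916 and 0.596), and neither did EGFR from Yinyanghuo (-0.03 ± 0.27, adjusted p = 1).

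**Figure D5:**
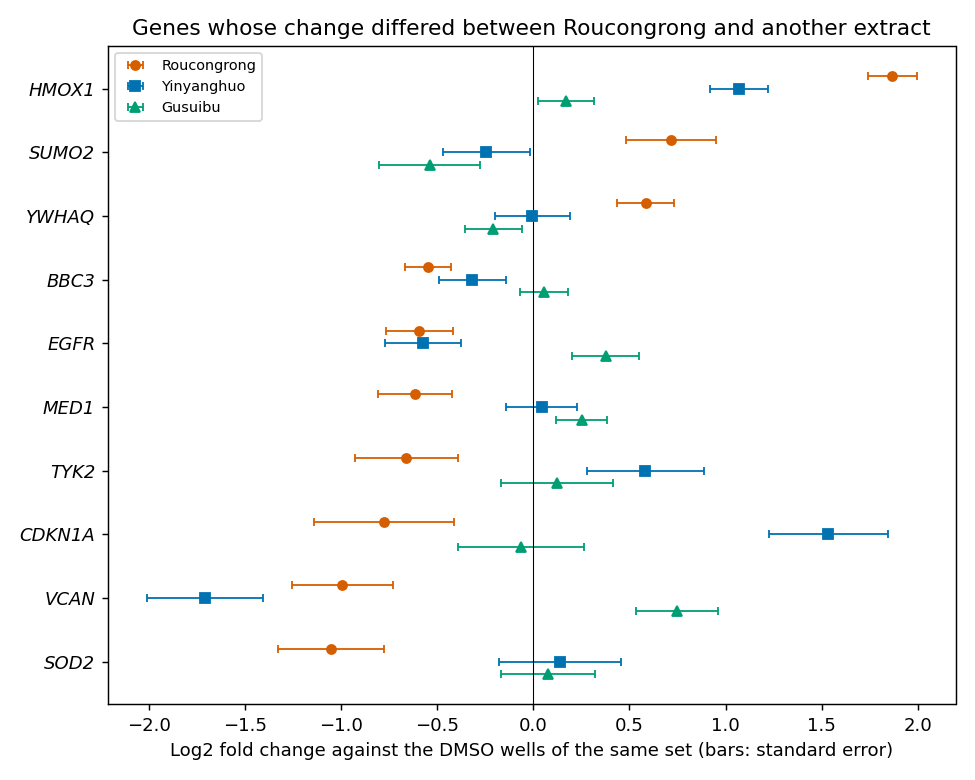
Log2 fold change against the DMSO wells of the same set is shown with its standard error for Roucongrong, Yinyanghuo and Gusuibu. Of the 21 called genes with a mean count of 5 or more and BBC3, 10 are shown. Their change with Roucongrong differed from that with another extract at an adjusted p under 0.05. HMOX1 is highest with Roucongrong and lowest with Gusuibu, and VCAN lies below zero with Roucongrong and Yinyanghuo and above it with Gusuibu.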

How the data were processed

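Gene expression was measured by RASL-seq in 57 wells of HK-2 cells, of which the 3 Roucongrong wells and the 16 DMSO wells of their set enter the comparison. The deposited values are raw read counts per Entrez gene for 412 panel genes. The submitters' processing notes name Bowtie2 2.2.4 and DESeq2 1.22.1, and the methods state that reads with more than 3 mismatches were discarded. Genome build and probe sequences are not given in the sources used here.

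Counts were fitted with edgeR 4.0.16 in R 4.3.3 (TMM, quasi-likelihood F test), on all genes with at least 1 count in the 19 wells, with Benjamini-Hochberg adjustment over those 402 genes. A gene was called at an unadjusted p under 0.05 with a fold change above 1.5 or below 0.67. Standard errors are the absolute log2 fold change divided by the square root of F. CPM values use TMM library sizes, and log2 CPM a prior count of 2. Extracts were compared by the interaction term in a fit of 6 groups over 57 wells. The alternatives were DESeq2 1.42.0 (Cook's replacement and cutoff off), other normalizations and filters, other DMSO wells, a replicate block and single wells left out, and 2 more were chosen after seeing the data, namely 11 DMSO wells of matched depth and a stricter filter without the third treated well. Tables were handled with pandas 2.3.3, numpy 2.4.6 and scipy 1.17.1.

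Genes named in the text are those called with a mean count of 5 or more, those with an adjusted p under 0.05, those whose treated wells lie outside the DMSO range, and the most abundant members of each gene list, besides the genes of the low-count calls, those said to be chosen after their values were seen, and AREG, LAMC1, MDM2 and YWHAH, which were added after their values were seen. A few genes within this rule are left unreported. The genes and lists were chosen with earlier results of these data known. In counts simulated for this comparison over 395 genes, 89 of 111 genes (80.2%) changed by 1 on the log2 scale and 4 of 116 unchanged genes (3.45%) were called at mean counts of 5 or more. The simulated wells were drawn independently, with none set apart as the third treated well was. These shares therefore hold for that simpler setting and not for the measured wells.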

Additional observations from a re-analysis of the deposited data

Results flagged for a closer look

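Over all 412 genes, the interaction test (edgeR, 57 wells, 3 treated wells per extract) gave an adjusted p under 0.05 for 28 against Yinyanghuo and 27 against Gusuibu. Of the 21 called genes with a mean count of 5 or more and BBC3, 10 differed from another extract in this test, and only these are listed. Against Yinyanghuo, the log2 fold change was lower for CDKN1A (difference -2.32, adjusted p = 0.000172), SOD2 (-1.20, adjusted p = 0.0417) and TYK2 (-1.25, adjusted p = 0.0485), and higher for HMOX1 (0.80, adjusted p = 0.0156). Against Gusuibu, it was higher for HMOX1 (1.69, adjusted p = 2.93e-08), SUMO2 (1.28, adjusted p = 0.025) and YWHAQ (0.79, adjusted p = 0.0472). It was lower for VCAN (-1.76, adjusted p = 0.000352), EGFR (-0.98, adjusted p = 0.0204), MED1 (-0.88, adjusted p = 0.025), SOD2 (-1.14, adjusted p = 0.0477) and BBC3 (-0.61, adjusted p = 0.0477). The differences of CDKN1A from Yinyanghuo and of HMOX1 and VCAN from Gusuibu kept an adjusted p under 0.05 whichever Roucongrong well was left out. Each of the other 9 lost it without at least 1 of these wells. Beyond the description of single wells and the fits that left 1 out, no outlier test was run in the groups of 3 and of 16 wells.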

How the results depend on the processing

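With 3 treated wells, single wells carried much of the count of calls. The 41 genes called became 26 with DESeq2, 21 when only genes with a mean count of 5 or more entered the fit, 19 with edgeR's own expression filter (208 genes) and 19 with the count limit and without the third treated well. The 29 called higher became 14, 10, 9 and 7 in the same order. Leaving out single wells gave 24 to 54 calls, 12 to 32 higher and 9 to 22 lower, with the lowest count of calls without the third treated well and the highest without the second. The 12 genes with an adjusted p under 0.05 became 2 to 18 when single wells were left out (2 without the third, 6 without the first), 3 with the count limit and without the third, and 19 against DMSO wells of the other sets. With those wells the log2 fold changes of BCL2L1 (0.014), MED1 (0.081) and PIAS1 (0.13) changed sign, and with single wells left out NCF1 ran from -1.33 (the third treated well) to 5.21 (a DMSO well), while the block gave 5.74. Differences between extracts numbered 13 to 27 for Yinyanghuo (18 without the third treated well) and 6 to 31 for Gusuibu (8 without the first) when single Roucongrong wells were left out. The count of 21 calls at a mean count of 5 or more stayed within 1.5 times in all alternatives. The cause of these changes was not tested, apart from the smaller number of genes tested under the filters. Wells with the same replicate number had deviations correlated at -0.0008, -0.18 and 0.18. With only 3 such pairs, these values cannot show whether the numbers pair wells. With the replicate block 26 genes were called, 13 of them higher, and 3 had an adjusted p under 0.05. Most replicate numbers occurred only in DMSO wells, and in this fit those wells add nothing to the treatment difference. At a total of 29609 to 75969 counts per well, a gene near the 3-count floor in both groups has no fold change that can be read.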
